A study of Mus musculus with 6 samples.

Results

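Krüppel-like factors are zinc-finger transcription factors, and 10 genes of the family were followed in infarcted mouse hearts: Klf2, Klf3, Klf4, Klf5, Klf6, Klf7, Klf10, Klf11, Klf12 and Klf13. They were chosen by symbol among the 52550 rows of the expression table, where each matched a single Ensembl identifier. Klf9 and Klf15 were left out of the group by that rule and are given below only for comparison. Hearts came from 3 mice homozygous for a deletion of the long noncoding RNA lncRNA-DRR (KO) and from 3 wild-type mice (WT), all C57BL/6. Every mouse had the left anterior descending coronary artery tied off for good at 8 weeks of age, and its heart was taken at 10 weeks, 2 weeks into the infarct. The labels do not say how the deletion was made, which cells it affects or which part of the heart was used. No sham-operated heart is among the 6 libraries, so KO against WT within infarcted hearts was the only comparison. Levels are in FPKM, in which fragment counts are divided by transcript length and by sequencing depth.

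Krüppel-like factors bind GC-rich and CACCC-type DNA through fingers at the C-terminal end, while their N-terminal parts recruit activators or repressors. In vessels, Klf2 and Klf4 are induced by laminar flow through the kinases MEKK3 and ERK5 and the MEF2 factors, and they turn on anti-thrombotic and vasodilator genes in endothelial cells. Klf6 is an early-response gene of injured vessels and of macrophages, Klf5 is tied to remodelling of smooth muscle and fibroblasts, and Klf10 and Klf11 are early genes of the TGF-beta response.

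Depth was estimated in single-transcript genes, from the step in FPKM times length that 1 fragment makes. It came to about 6868000 to 8163000 fragments per KO library and 5189000 to 9398000 per WT library. No row was taken as lncRNA-DRR, so the genotype labels were not checked by its level. KO replicate 3 had 25.6 FPKM of Xist, against at most 0.0742 FPKM in the other 5 libraries, and 0.0280 FPKM of the Y-linked gene Ddx3y, against 13.02 to 16.2 FPKM. It therefore reads as female and the others as male, and the differences of the tested members are also given without it. Nothing in the labels says that the mice came from separate litters or surgeries, so the p-values speak of the spread among these 6 libraries. The 8 cardiomyocyte markers summed to 17018 to 22935 FPKM in KO and 15161 to 23413 FPKM in WT hearts, with overlap and none listed at 0.

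Klf2 and Klf6 rose in KO hearts, and no member fell. Of the 10 genes, 9 passed the filter on low values, 0.5 FPKM or more in at least 3 libraries. Each of the 9 was above 2 FPKM in all 6 libraries, so the filter did not select them by genotype. By limma with an adjusted p under 0.05 over all 14656 tested genes, 2 of the 9 were called higher, against 0.273% of all tested genes, and 0 were called lower, against 0.102%. At an unadjusted limma p under 0.05, 5 of the 9 were higher (Klf2, Klf4, Klf6, Klf11 and Klf13) and 0 lower, against 3.8% higher, 4.68% lower and 8.48% either way among all tested genes. In these 5 genes every KO library lay above every WT library, which held for 5.29% of all tested genes. The members were chosen with these results known, so the counts describe the group. The median log2 difference of the 9 was 0.35, against -0.004 over all tested genes.

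**Figure D1:**
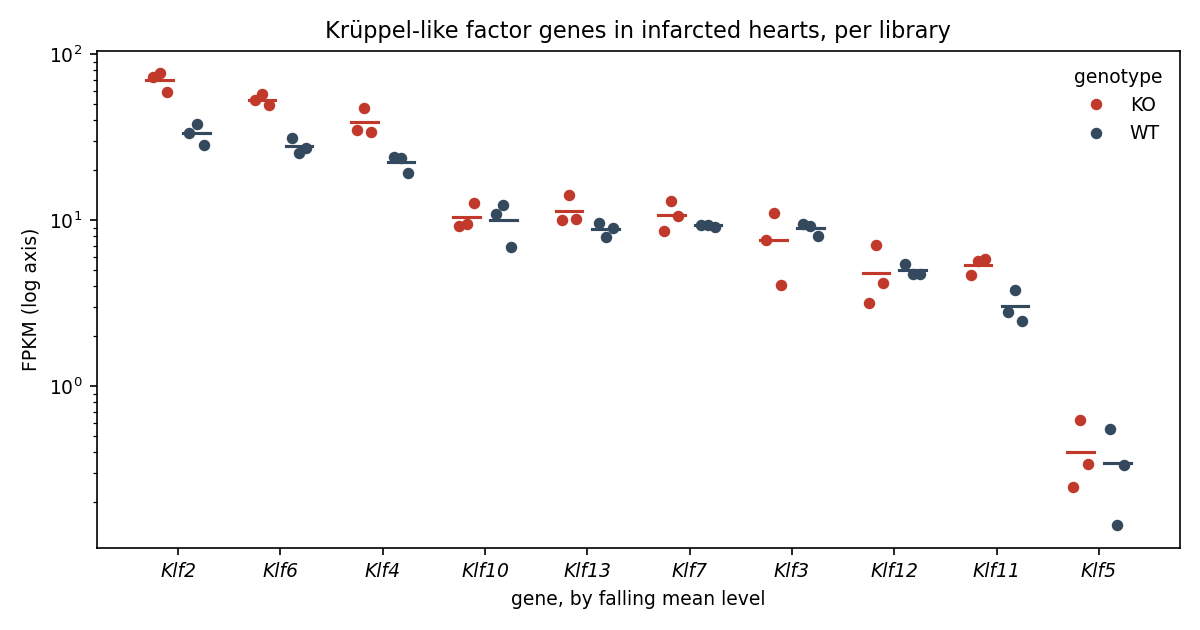
FPKM of the 10 Krüppel-like factor genes in each library (log axis), KO left of WT, with points for the 3 libraries of a genotype and a bar for their mean. Klf2, Klf6, Klf4, Klf13 and Klf11 show every KO point above every WT point, while the genotypes overlap in the other 5 genes.

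Klf2, the flow-induced factor of endothelium that also keeps T lymphocytes quiescent, was the most abundant member in all 6 libraries. It stood at 73.3, 76.8 and 59.4 FPKM in KO replicates 1 to 3, against 33.5, 38.2 and 28.5 FPKM in WT replicates 1 to 3. The lowest KO heart lay well above the highest WT heart. The means were 69.8 ± 9.22 FPKM in KO and 33.4 ± 4.86 FPKM in WT hearts (SD, n = 3 each), a ratio of 2.09. On the log2(FPKM + 0.5) scale used for every difference here, KO minus WT was 1.07 ± 0.15 (SE; 95% interval 0.72 to 1.41; limma adjusted p = 0.042). Klf2 has a single annotated transcript, and its FPKM corresponds to about 952, 1159 and 753 fragments in the KO libraries and 582, 561 and 273 in the WT libraries. Its call ended when any single library was left out (limma adjusted p from 0.0616 without KO replicate 3 to 0.176 without KO replicate 1), while the difference stayed between 1.00 and 1.18. In bulk tissue, more cells of a type and more RNA per cell cannot be told apart.

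Klf6, the injury-response factor, was next to Klf2 in level in every library. It stood at 53.2, 57.5 and 49.5 FPKM in KO hearts, against 31.2, 25.4 and 27.1 FPKM in WT hearts, again without overlap. Its means were 53.4 ± 4.02 FPKM in KO and 27.9 ± 2.99 FPKM in WT hearts (SD, n = 3 each), and its difference of 0.94 ± 0.11 was called (95% interval 0.68 to 1.20; limma adjusted p = 0.026). Without KO replicate 3 the difference was 0.98, but the adjusted p of limma rose to 0.0592. Leaving out any other library also ended the call (limma adjusted p 0.0752 without KO replicate 2, 0.0766, 0.171 and 0.103 without WT replicates 1, 2 and 3, and 0.139 without KO replicate 1).

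Klf4, which acts beside Klf2 in endothelium and switches smooth muscle cells away from their contractile state, was next in level in every library. It stood at 35.0, 47.7 and 33.9 FPKM in KO hearts, against 24.2, 23.9 and 19.4 FPKM in WT hearts. All KO values were above all WT values, but KO replicate 2 stood apart from the other KO hearts. The difference of 0.78 ± 0.14 (95% interval 0.46 to 1.10) missed the threshold (limma adjusted p = 0.095). It stayed between 0.67 and 0.85 with single libraries left out, with limma adjusted p from 0.128 to 0.280.

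The TGF-beta-inducible pair Klf10 and Klf11, which both recruit the SIN3A corepressor, gave different pictures. Klf11 stood at 4.72, 5.67 and 5.82 FPKM in KO hearts, against 2.79, 3.83 and 2.49 FPKM in WT hearts, a difference of 0.76 ± 0.17 (95% interval 0.37 to 1.16; limma adjusted p = 0.184). The genotypes did not overlap, but the difference was not called. Klf10 stood at 9.22, 9.51 and 12.7 FPKM in KO hearts and 10.9, 12.3 and 6.92 FPKM in WT hearts, and the genotypes overlapped. Its difference of 0.09 ± 0.22 had a 95% interval from -0.42 to 0.61, and its sign turned without KO replicate 3 (-0.06) or WT replicate 3 (-0.10). Whether Klf11 and Klf10 differ from each other in response was not tested.

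Klf13, a further SIN3A-binding member described in human T lymphocytes, stood at 9.99, 14.2 and 10.2 FPKM in KO hearts, against 9.57, 7.94 and 8.99 FPKM in WT hearts. The gap between the genotypes was narrow, at 9.99 FPKM in KO replicate 1 against 9.57 FPKM in WT replicate 1. Its difference of 0.35 ± 0.14 (95% interval 0.03 to 0.68) was not called (limma adjusted p = 0.531).

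Klf3 and Klf12, which repress genes through the CtBP corepressors, were not called and spread widely among KO hearts. Klf3 stood at 7.60, 11.02 and 4.07 FPKM in KO hearts and at 9.54, 9.29 and 8.07 FPKM in WT hearts. The KO value of replicate 3 was the lowest and that of replicate 2 the highest of all 6 hearts. Klf3 differed by -0.32 ± 0.29 (95% interval -0.98 to 0.35; limma adjusted p = 0.836), and without KO replicate 3 the difference was 0.03. Klf12 stood at 3.16, 7.13 and 4.196 FPKM in KO hearts and at 5.44, 4.77 and 4.78 FPKM in WT hearts, so the KO hearts enclosed the WT range. It differed by -0.10 ± 0.23 (95% interval -0.63 to 0.43), and by 0.11 without KO replicate 1.

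Klf7, best known from developing neurons, stood at 8.67, 13.1 and 10.7 FPKM in KO hearts and at 9.43, 9.35 and 9.17 FPKM in WT hearts. KO values lay on both sides of the WT values, and the difference of 0.20 ± 0.14 was not called (95% interval -0.13 to 0.52; limma adjusted p = 0.784). Exons of Klf7 overlap those of Gm26649, a noncoding gene on the opposite strand with 10.3 to 12.4 FPKM in KO and 10.1 to 10.5 FPKM in WT libraries. Use of strand in counting is not stated, so reads of Klf7 and Gm26649 cannot be told apart here. Exons of Klf3 overlap those of Gm20033 in the same way, which had at most 1.10 FPKM in KO and 1.62 FPKM in WT libraries.

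Klf5, the remodelling factor of smooth muscle and fibroblasts, was near the floor of detection. It stood at 0.248, 0.627 and 0.338 FPKM in KO hearts and at 0.550, 0.146 and 0.336 FPKM in WT hearts. It did not pass the filter on low values, and the genotypes overlapped. When the fit took in genes below that filter, Klf5 differed by 0.11 ± 0.23 (95% interval -0.44 to 0.66; limma adjusted p = 0.91).

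**Figure D2:**
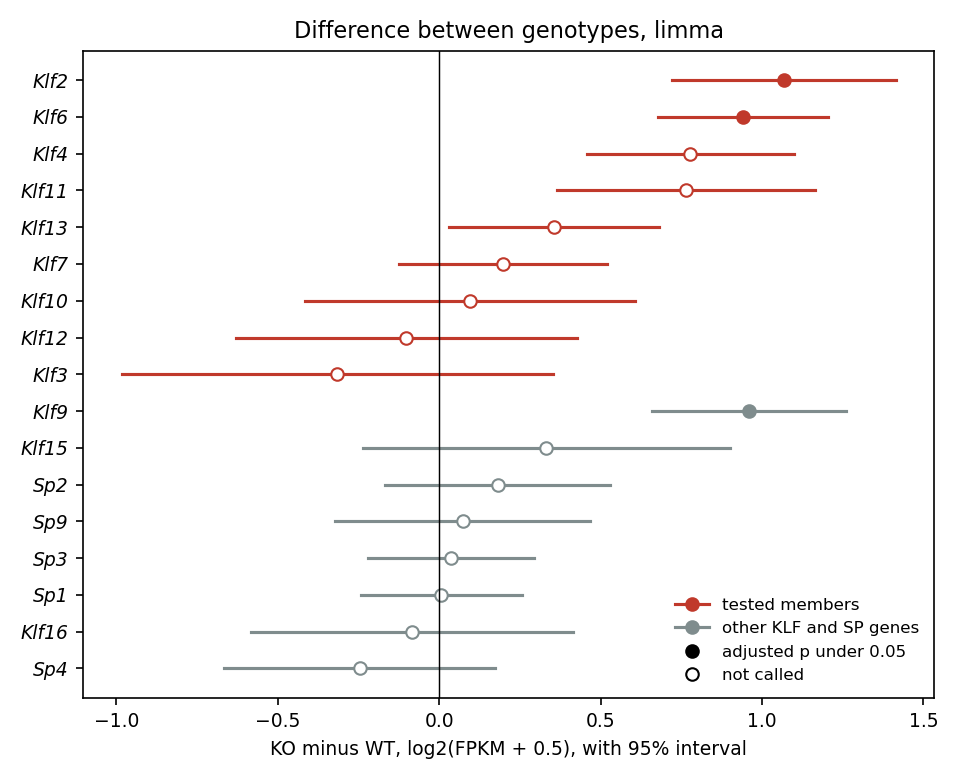
Log2 differences, KO minus WT, with 95% intervals from limma for the 9 tested members (red) and the 8 other KLF and SP genes with a mean FPKM of at least 1 (grey), filled where the adjusted p was under 0.05. Klf2 (1.07), Klf6 (0.94) and Klf9 (0.96) are filled, and the intervals of Klf4, Klf11 and Klf13 lie above 0 without a call.

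In order of mean level, KO hearts had Klf2, Klf6 and Klf4 (38.9 ± 7.70 FPKM), then Klf13, Klf7 and Klf10 (11.4 ± 2.35, 10.8 ± 2.21 and 10.5 ± 1.94 FPKM), then Klf3, Klf11, Klf12 and Klf5. WT hearts had Klf2, Klf6 and Klf4 (22.5 ± 2.69 FPKM), then Klf10, Klf7, Klf3 and Klf13 (10.05 ± 2.79, 9.32 ± 0.130, 8.97 ± 0.785 and 8.84 ± 0.827 FPKM), then Klf12, Klf11 and Klf5 (SD, n = 3 each). Within the middle group of each genotype, neighbours differed by less than the larger of their SDs. The 10 members summed to 205.0, 243.3 and 190.8 FPKM in KO hearts, against 137.1, 135.0 and 115.7 FPKM in WT hearts. Klf2, Klf4 and Klf6 made up 78.7%, 74.9% and 74.8% of that sum in KO hearts, against 64.8%, 64.7% and 64.8% in WT hearts. The share of Klf3 was 3.71%, 4.53% and 2.13% in KO hearts, against 6.96%, 6.88% and 6.98% in WT hearts, over a larger sum in every KO heart, which by itself lowers the share of a gene at an equal level. Without KO replicate 3, the differences were 1.16 for Klf2, 0.98 for Klf6, 0.85 for Klf4, 0.70 for Klf11, 0.41 for Klf13, 0.18 for Klf7, 0.03 for Klf3, and -0.06 for both Klf10 and Klf12 (limma adjusted p from 0.0592 to 0.969). After scaling, KO replicate 2 was the highest KO library in 6 of the 10 members, and over all tested genes it was the highest in 37.6%. The 6 fibroblast markers also had their highest KO sum there, at 1846 FPKM in KO replicate 2 against 1260 and 917.5 FPKM in KO replicates 1 and 3. In WT replicates 1 to 3 these markers summed to 1574, 929.5 and 800.2 FPKM. After scaling, the highest WT library was WT replicate 1 in 3 of the 10 members and WT replicate 2 in 5. Of the 6, 5 had a difference above 0 and 1 below, with a median of 0.30. By limma 0 were called, and 1 was higher at an unadjusted p under 0.05. The part of fibroblasts in the members' levels was not tested.

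**Figure D3:**
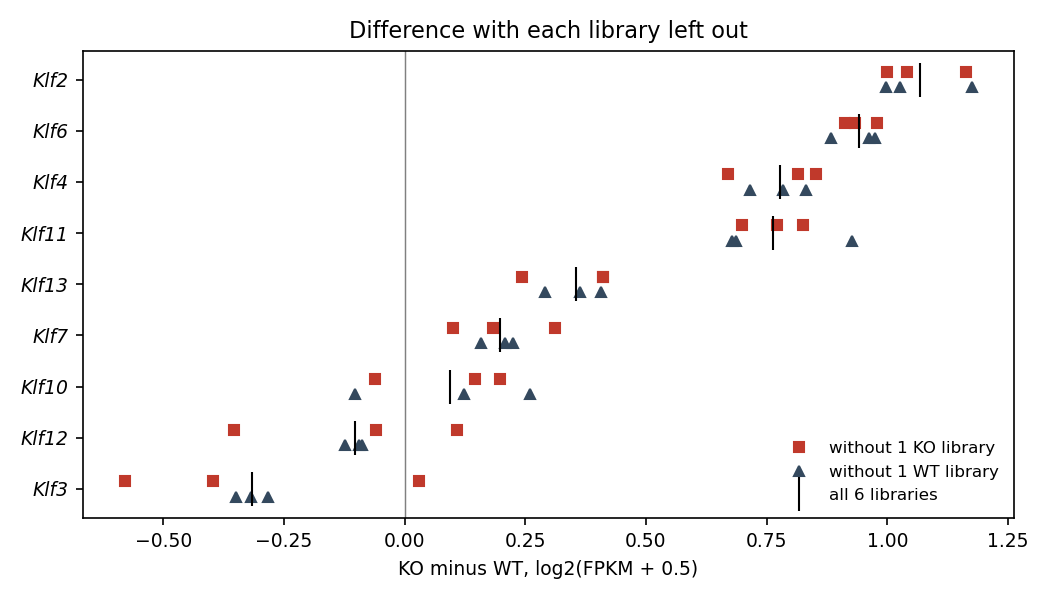
Log2 difference, KO minus WT, of each tested member with all 6 libraries (black line), without 1 KO library (squares) and without 1 WT library (triangles). Klf2, Klf6, Klf4, Klf11, Klf13 and Klf7 stay above 0 in each of these fits, while points of Klf10, Klf12 and Klf3 lie on both sides of 0.

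The promoters of the 4 members with the largest differences were picked by those differences and are shown with their MEF2 and E-box matches. RefSeq promoters, from 250 bases before to 50 after the start, were at hand for 8 of the 10 members (Klf2, Klf3, Klf4, Klf6, Klf7, Klf11, Klf12 and Klf13). Each line holds 150 bases, 5′ to 3′ on the gene's strand, GRCm38.p6: Klf2 at chr8:72318812-72318961 (plus strand), Klf4 at chr4:55532576-55532725 (minus strand), Klf6 at chr13:5861309-5861458 (plus strand) and Klf11 at chr12:24651121-24651270 (plus strand). Capitals mark the MEF2 consensus in Klf2 and the E-box CACGTG in the other 3 genes.
Klf2: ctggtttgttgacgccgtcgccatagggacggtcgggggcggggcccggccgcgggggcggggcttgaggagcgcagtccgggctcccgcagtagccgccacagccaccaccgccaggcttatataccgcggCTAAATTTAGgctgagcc
Klf4: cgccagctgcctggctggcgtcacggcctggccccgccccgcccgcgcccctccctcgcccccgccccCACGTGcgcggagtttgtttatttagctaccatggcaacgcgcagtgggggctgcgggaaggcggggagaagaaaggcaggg
Klf6: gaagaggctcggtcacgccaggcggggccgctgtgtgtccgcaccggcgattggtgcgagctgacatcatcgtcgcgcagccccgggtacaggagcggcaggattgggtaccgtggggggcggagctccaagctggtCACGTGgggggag
Klf11: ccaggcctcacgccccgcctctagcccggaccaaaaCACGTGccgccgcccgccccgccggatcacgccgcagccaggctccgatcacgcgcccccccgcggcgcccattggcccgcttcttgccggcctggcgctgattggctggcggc

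The E-box CACGTG, which reads the same on both strands and is bound by the clock factors CLOCK and BMAL1 among other helix-loop-helix proteins, was found in 3 of the 8 promoters: those of Klf4, Klf6 and Klf11. It lies at bases -182 to -177 of Klf4, -43 to -38 of Klf6 and -214 to -209 of Klf11, counted from the RefSeq start. Of 32851 mouse promoters of the same length, 7.2% hold it. The 3 promoters have a GC content of 74.3% (Klf4), 63.0% (Klf6) and 77.7% (Klf11), against a median of 52.7% and an upper quartile of 61.7% over all promoters, so that share is not one for promoters of like composition. The MEF2 consensus, searched on both strands, was found in Klf2 alone of the 8, at bases -118 to -109, and in 3.2% of all promoters. CCAAT on either strand was found in Klf6 (4 matches), Klf11 (2) and Klf13 (2), and in 37.4% of all promoters. CACCC on either strand, the core bound by the family itself, was found in 5 of the 8 promoters and in 57.5% of all, with most matches in Klf3 (5). The cAMP response element TGACGTCA, the serum response (CArG) box, the D-box TTATGNAA and the palindromic glucocorticoid response element, each on both strands, had no match in these 8 windows. They were found in 1.8%, 1.6%, 3.4% and 0.1% of all promoters. A match describes the letters of a window and not binding, and the motifs were picked with the members' values known.

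**Figure D4:**
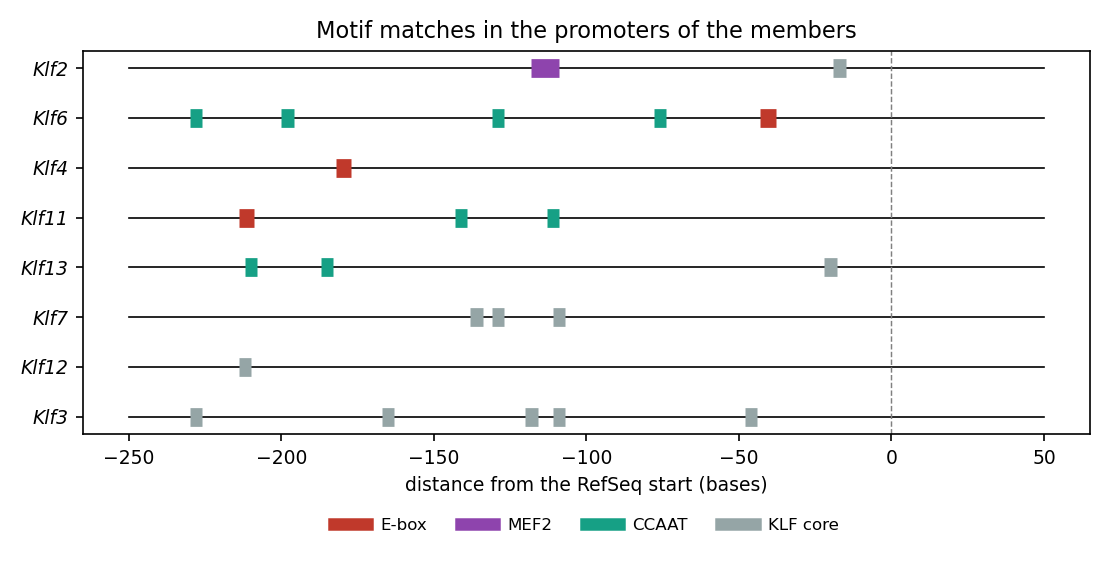
Motif matches in the promoters of the 8 members with a RefSeq window, from 250 bases before to 50 after the start (x axis, bases from the start), with genes ordered from the largest log2 difference, KO minus WT, at the top. E-box matches (red) appear in Klf6, Klf4 and Klf11, and the MEF2 match (purple) in Klf2.

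Klf9, a glucocorticoid-inducible paralogue, had values close to those of Klf2. It stood at 64.7, 77.5 and 60.6 FPKM in KO hearts, against 33.1, 34.9 and 35.9 FPKM in WT hearts, and its difference of 0.96 ± 0.13 was called higher (limma adjusted p = 0.035). That call ended without any single library (limma adjusted p from 0.068 to 0.184). Klf15, a cardiomyocyte factor that restrains hypertrophy, stood at 10.1, 9.71 and 12.9 FPKM in KO hearts and at 6.54, 11.8 and 8.14 FPKM in WT hearts, with overlap (difference 0.33 ± 0.24; limma adjusted p = 0.790). Of the 16 other KLF and SP genes, 8 were tested. Of these 8, 1 rose and 0 fell, against 0.273% and 0.102% of all tested genes, and the median difference was 0.05. The GC-box factors Sp1, Sp2, Sp3, Sp4 and Sp9 and the paralogue Klf16 differed by -0.25 to 0.18. The intervals of Sp1 (-0.24 to 0.26) and Sp3 (-0.22 to 0.30) leave out differences as large as those of Klf2 and Klf6.

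Upstream of Klf2 and Klf4, the MEKK3, ERK5 and MEF2 pathway with its inhibitory CCM complex showed no called gene by limma. Of 13 tested genes, 1 was higher and 0 lower at an unadjusted limma p under 0.05, against 3.8% and 4.68% of all tested genes. The median difference of the 13 was -0.04. The same shares stand beside the unadjusted counts of the lists below. Pdcd10, a subunit of the CCM complex, stood at 11.9, 13.8 and 14.1 FPKM in KO hearts, against 11.2, 10.6 and 10.7 FPKM in WT hearts (limma adjusted p = 0.522). Mapk7, which encodes ERK5, stood at 3.43, 2.16 and 1.91 FPKM in KO hearts and at 3.995, 3.48 and 2.97 FPKM in WT hearts. Mef2c stood at 1.67, 2.74 and 1.78 FPKM in KO hearts and at 3.45, 1.95 and 2.66 FPKM in WT hearts (limma adjusted p = 0.680 for Mapk7 and 0.780 for Mef2c). These are transcript levels, and the activity of the kinases was not measured.

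Known targets of Klf2 and Klf4 in endothelium did not move as a block. Of 7 tested genes that these factors induce, 2 rose and 0 fell, against 0.273% and 0.102% of all tested genes. The 7 had a median difference of 0.06. S1pr1, the sphingosine-1-phosphate receptor of endothelium and lymphocytes, stood at 75.6, 86.1 and 68.2 FPKM in KO hearts, against 38.1, 36.6 and 36.9 FPKM in WT hearts (difference 1.04 ± 0.12; limma adjusted p = 0.020). Adamts1, a versican-cleaving protease gene, stood at 20.5, 24.3 and 27.0 FPKM in KO hearts, against 11.3, 9.70 and 9.73 FPKM in WT hearts (difference 1.19 ± 0.13; limma adjusted p = 0.018). Both genes separated the genotypes fully. Both calls ended without any single library other than KO replicate 3 (limma adjusted p from 0.0545 to 0.144).

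Other genes of that list gave no such difference, or the opposite one. Nos3, the endothelial nitric oxide synthase gene, stood at 16.4, 17.4 and 18.3 FPKM in KO hearts and at 16.1, 15.98 and 18.03 FPKM in WT hearts. Thbd, which encodes thrombomodulin, stood at 20.9, 28.8 and 29.7 FPKM in KO hearts and at 28.6, 24.1 and 23.5 FPKM in WT hearts. The 95% intervals of their differences ran from -0.23 to 0.37 for Nos3 and -0.28 to 0.40 for Thbd. Adamts4, a second protease gene, stood at 0.557, 1.38 and 0.806 FPKM in KO hearts, against 3.37, 2.41 and 2.71 FPKM in WT hearts (difference -1.26 ± 0.22; limma adjusted p = 0.085). Ptgds, the prostaglandin D synthase gene, stood at 45.3, 41.5 and 45.6 FPKM in KO hearts, against 96.2, 74.3 and 112.0 FPKM in WT hearts (difference -1.05 ± 0.19; limma adjusted p = 0.094). Neither was called, although every KO library of both lay below every WT library, which held for 7.5% of all tested genes. Nos3, Thbd and Ptgds were named after their values were seen.

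Of 6 genes counted here that Klf2 and Klf4 are known to hold down in endothelium, 0 were called by limma and 0 had an unadjusted p under 0.05, with a median difference of 0.08. Edn1, the endothelin gene, stood at 5.47, 5.52 and 5.60 FPKM in KO hearts, against 7.50, 7.34 and 5.75 FPKM in WT hearts (limma adjusted p = 0.636). Every KO library of Edn1 lay below every WT library, by a narrow gap between the replicates 3. Such an order held for 7.5% of all tested genes. Vcam1, a leucocyte adhesion gene, differed by 0.29 ± 0.13 (limma adjusted p = 0.637).

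**Figure D5:**
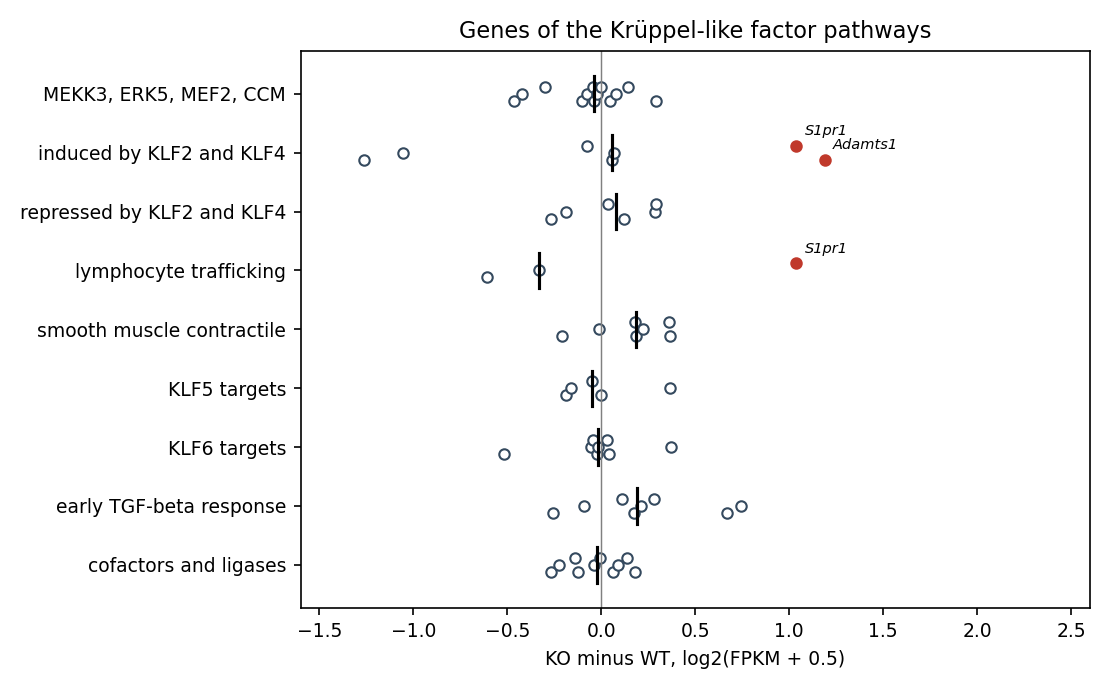
Log2 difference, KO minus WT, of each tested gene (points) in 9 lists of genes around the Krüppel-like factors, with the list median as a black line and genes with a limma adjusted p under 0.05 filled and named. The called genes are S1pr1 (1.04), which appears in more than 1 list, and Adamts1 (1.19).

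Genes through which Klf2 steers lymphocyte traffic were split. S1pr1 was the 1 called gene among the 3 counted here, against 0.273% of all tested genes called higher. The median difference of the 3 was -0.33. The integrin gene Itgb7 stood at 0.673, 1.20 and 0.578 FPKM in KO hearts and at 1.92, 1.46 and 1.12 FPKM in WT hearts, with overlap (difference -0.61 ± 0.22; limma adjusted p = 0.473). T and natural killer cell markers were low: the 8 genes summed to 2.73 to 4.51 FPKM in KO and 5.69 to 10.9 FPKM in WT hearts. Of these 8, 4 passed the filter and 0 were called by limma, with 2 lower at an unadjusted p under 0.05, and Cd3d and Cd8a were listed at 0 in at least 1 library. The part of T cells in the levels of Klf2 and S1pr1 was not tested.

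The contractile genes of smooth muscle, which Klf4 and Klf5 hold down in cultured cells, had a median difference of 0.18 over 7 tested genes, with 0 called by limma and 1 higher at an unadjusted p under 0.05. Lmod1, an actin-nucleating protein gene, stood at 4.55, 4.84 and 4.24 FPKM in KO hearts, against 3.66, 3.05 and 3.66 FPKM in WT hearts (limma adjusted p = 0.466). Acta2, the smooth muscle actin gene, stood at 171.6, 155.6 and 126.1 FPKM in KO hearts and at 137.9, 102.7 and 115.0 FPKM in WT hearts, with overlap. The cytoskeletal gene Smtn differed by 0.18 ± 0.12 (limma adjusted p = 0.755).

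Of 8 tested targets of Klf6, 0 were called by limma, 1 was lower at an unadjusted p under 0.05 and the median difference was -0.02. Plau, the urokinase gene, stood at 2.59, 2.94 and 3.11 FPKM in KO hearts, against 4.82, 4.86 and 3.56 FPKM in WT hearts (difference -0.52 ± 0.14; limma adjusted p = 0.295). Cdkn1a, the gene of the cell cycle inhibitor p21, stood at 24.96, 42.1 and 24.5 FPKM in KO hearts, against 22.7, 22.7 and 23.3 FPKM in WT hearts, where KO replicate 2 stood far above the others. Tgfb1 differed by -0.05 ± 0.15. Of 5 targets of Klf5 counted here, 0 were called by limma and 0 had an unadjusted p under 0.05, with differences of 0.36 ± 0.23 for the growth factor gene Igf1 and -0.19 ± 0.20 for the cyclin gene Ccnd1.

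Of 8 early genes of the TGF-beta response counted here, the setting in which Klf10 and Klf11 are induced, 0 were called by limma, 2 were higher at an unadjusted p under 0.05, and the median difference was 0.19. Id1, an inhibitor of helix-loop-helix factors, stood at 78.5, 71.5 and 67.0 FPKM in KO hearts, against 48.1, 44.5 and 44.2 FPKM in WT hearts (difference 0.67 ± 0.12; limma adjusted p = 0.107). The genotypes did not overlap for Id1, but it was not called. Ccn2, a matricellular protein gene, stood at 310.2, 390.5 and 243.7 FPKM in KO hearts and at 250.2, 172.9 and 148.3 FPKM in WT hearts (limma adjusted p = 0.317). The cofactors and ubiquitin ligases of the family had 0 of 10 genes called by limma, 0 with an unadjusted p under 0.05 and a median difference of -0.02. Among them, Fbxw7 and Wwp1, ligases that mark family members for breakdown, differed by -0.27 ± 0.18 and -0.14 ± 0.10, and the deacetylase gene Hdac1 by 0.18 ± 0.14.

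The 9 endothelial marker genes summed to 379.3, 428.8 and 344.1 FPKM in KO hearts and to 387.5, 389.0 and 369.4 FPKM in WT hearts, with 0 called by limma, 1 lower at an unadjusted p under 0.05, a median difference of 0.06 and none listed at 0. The junction gene Cdh5 differed by 0.02 ± 0.15, and by -0.03 without WT replicate 1 or -0.08 without KO replicate 2. Pecam1 differed by 0.16 ± 0.11. Kdr, the main receptor for vascular endothelial growth factor, stood at 28.4, 27.6 and 26.3 FPKM in KO hearts, against 38.4, 43.0 and 41.3 FPKM in WT hearts (limma adjusted p = 0.195). Set against the summed endothelial markers, Klf2 came to 19.3%, 17.9% and 17.3% in KO hearts and 8.66%, 9.81% and 7.70% in WT hearts. Klf4 came to 9.23%, 11.1% and 9.84% in KO hearts and 6.24%, 6.14% and 5.25% in WT hearts. The ratios have the summed markers as denominator and do not show which cells the Klf2 and Klf4 RNA came from, and the part of endothelial content in the differences was not tested. The 7 vessel wall (mural) markers summed to 418.1 to 525.4 FPKM in KO and 425.8 to 441.2 FPKM in WT hearts, and the 7 macrophage markers to 666.6 to 921.9 FPKM in KO and 705.1 to 1238 FPKM in WT hearts, both with overlap. The 6 neutrophil markers summed to 20.2 to 34.8 FPKM in KO and 50.6 to 74.6 FPKM in WT hearts. S100a8, S100a9 and Mmp8 were lower at an unadjusted limma p under 0.05, against 4.68% of all tested genes. In these 3 every KO library lay below every WT library, which held for 7.5% of all tested genes. The genotypes overlapped in the other 3, Csf3r, Cxcr2 and Retnlg. Only S100a8 was called lower by limma, against 0.102% of all tested genes. That call ended when any single library was left out. B cell markers (6 genes) summed to 10.4 to 20.7 FPKM in KO and 23.7 to 85.7 FPKM in WT hearts, and red cell genes (5) to 4403 to 7276 FPKM in KO and 6301 to 11040 FPKM in WT hearts, with 0 called by limma in either list and, at an unadjusted p under 0.05, 2 B cell genes lower. Their part in the members' differences was not tested.

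Genes of the same fast-response kind, and of the clock and glucocorticoid pathways, also moved between the genotypes. Over all tested genes, 0.273% were called higher and 0.102% lower by limma. At an unadjusted limma p under 0.05, 3.8% were higher and 4.68% lower. Of 23 tested immediate early genes other than Krüppel-like factors, 4 rose and 0 fell, with a median difference of 0.49. At an unadjusted limma p under 0.05, 11 were higher and 0 lower. The called genes were Ier3, Nr4a1, Dusp1 and Csrnp1. Dusp1, a phosphatase gene that switches off MAP kinases, stood at 63.7, 68.6 and 42.8 FPKM in KO hearts, against 18.6, 22.7 and 21.0 FPKM in WT hearts (limma adjusted p = 0.035). Of the 6 fits without a library, Ier3, Nr4a1, Dusp1 and Csrnp1 were each called in 1. Of 14 glucocorticoid-induced genes, 7 rose and 0 fell, with a median difference of 1.43, and 13 were higher and 1 lower at an unadjusted limma p under 0.05. The lower gene, Zbtb16, stood at 3.32, 3.18 and 3.59 FPKM in KO hearts, against 4.35, 6.60 and 7.20 FPKM in WT hearts (difference -0.72 ± 0.22; limma adjusted p = 0.373), and was named after its values were seen. Per1 and Dusp1 of this list also belong to the clock and immediate early lists. Cebpd, a bZIP factor gene, stood at 34.7, 37.7 and 27.7 FPKM in KO hearts, against 11.3, 9.23 and 10.3 FPKM in WT hearts (limma adjusted p = 0.0051), and Sgk1, a kinase gene, differed by 1.29 ± 0.16 (limma adjusted p = 0.029). Cebpd and Tsc22d3 were called in all 6 fits without a library, and Sgk1 in 1. Of 19 clock genes, 8 rose and 2 fell, with a median difference of 0.96. Their differences ran from -2.83 to 3.86, and 12 were higher and 6 lower at an unadjusted limma p under 0.05. The hour at which the hearts were taken is not labelled, and the part of time of day or glucocorticoids in the rise of Klf2, Klf6 and Klf9 cannot be told apart from genotype.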

How the data were processed

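Values came from the authors' deposited table of FPKM per gene (fragment counts divided by transcript length and depth), which is titled as raw counts but holds fractional values. Bowtie 0.12.2 and the builds mm8 and mm9 appear in the submitters' processing notes with no role; for the quantification tool, annotation and strand, the entry is: not given in the sources used here. Of 52550 rows, 52403 matched GENCODE M21 (GRCm38) by identifier, which gave symbols and positions. The 37 genes of the mitochondrial genome stand at 0 throughout.

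The filter kept genes that reached 0.5 FPKM in at least 3 libraries. FPKM was divided by trimmed-mean factors (trims of 0.3 on ratios and 0.05 on levels), a pseudocount of 0.5 was added, and log2 differences were fitted with limma 3.58.1 under R 4.3.3 (a two-sided test of genotype, with no covariate and a trended prior variance). P-values were adjusted by the Benjamini-Hochberg method over all tested genes, and a gene was called at an adjusted p under 0.05. The fit was also run on simulated data with noise drawn independently for each gene and library. That run does not bear on differences that many genes of a library share. The members, the 23 gene lists (the members among them) and the tests were chosen with earlier results of these data known. Named genes were the members, other KLF and SP genes with a mean FPKM of at least 1, and the called members and 3 smallest p-values of each other functional list; some genes that the rule takes are given as counts. Marker lists are given as counts and sums. Some genes of the pathway lists are not reported here and were left out of the list counts and medians, though not out of the fit. Replicate numbers come from the sample titles and did not pair the libraries. Alternatives changed the scaling, pseudocount, filter, variance model and replicate block, or left out 1 library. Promoter sequences are RefSeq's (GRCm38.p6).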

Additional observations from a re-analysis of the deposited data

How the results depend on the processing

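The differences of Klf2 and Klf6 kept their sign in all 16 alternatives, between 1.00 and 1.18 for Klf2 and between 0.88 and 0.98 for Klf6, but their calls lay near the threshold. The count of members called higher was 2, with a range of 0 to 0 when 1 library was left out. It was 1 without scaling, 1 without the filter on low values and 1 without the mean-variance trend, where Klf2 missed (limma adjusted p = 0.0546, 0.12 and 0.061) and Klf6 stayed. With the replicate number as a block it was 0 (limma adjusted p = 0.0726 for Klf2 and 0.0848 for Klf6) and 42 genes were called in all. The labels do not say that the numbers pair the hearts, and same-numbered libraries deviated together only weakly (r = 0.0076, -0.036 and 0.18, across genes); KO replicate 3 alone correlated best with its own number. No member was called lower under any alternative, and Klf4, Klf11 and Klf13 were not called under any. Over all genes 55 were called, 20 without the filter, where 25162 genes were tested, and 12 to 36 with 1 library left out. The sign of 10 uncalled genes turned in single fits. Without scaling Sp1 differed by -0.0058. With 1 library left out, differences ran from -0.58 to 0.030 for Klf3, -0.10 to 0.26 for Klf10, -0.35 to 0.11 for Klf12, -0.21 to 0.10 for Klf16, -0.028 to 0.044 for Sp1, -0.013 to 0.10 for Sp3, -0.20 to 0.045 for Tgfb1, -0.082 to 0.13 for Cdh5, -0.0019 to 0.16 for Nos3 and -0.047 to 0.19 for Thbd. The cause was not tested. Klf5 lay below the filter on low values and was fitted only without it.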
